A study of Mus musculus with 1528 samples.

Results

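The genes described here are Clec10a and Mgl2, the neighbouring C-type lectin genes of mouse chromosome 11, which are 2 of the 55421 genes in a count table of single macrophages. They were picked by symbol, matched to the Ensembl identifiers ENSMUSG00000000318 and ENSMUSG00000040950. The macrophages (BMDMs, grown with CSF1 from the bone marrow of C57BL/6 mice, which the study's methods give as male C57BL/6J) came from 2 mice. They had received the type 2 cytokines IL4+IL13, alone or together with TNF, for 24 h and at 10 ng/ml of each. Single live cells were sorted into 4 plates and read by Smart-seq2, with plates 2 and 3 from mouse 1 and plates 4 and 5 from mouse 2. Each plate held the IL4+IL13 cells in its upper rows and the IL4+IL13+TNF cells in its lower rows, so every plate gave its own comparison of the treatments, while position on the plate and the treatment cannot be told apart. All cells carried IL4+IL13, and cells without cytokines were not part of this experiment, so the values compare IL4+IL13 cells with and without TNF and not with resting cells. After filtering, 1386 cells were used, 690 without and 696 with TNF, with a median of 477871 and 464673 fragments per cell and a range of 200235 to 6122892.

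Clec10a (also MGL1 or CD301a) and Mgl2 (CD301b) encode type II membrane receptors with a calcium-dependent lectin domain that bind sugars ending in galactose or N-acetylgalactosamine and carry them into the cell. Macrophages and dendritic cells display them, and IL4 and IL13 acting through STAT6 raise their transcripts, so they are widely used marks of alternatively activated macrophages. Mice have both genes, apparently from a duplication, while humans have a single one. A pair of neighbours answering to the same cytokines raises the question of whether their transcripts are absent from the same cells or from different cells when TNF is added.

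Mgl2 lies at chr11:70130329-70137550 and Clec10a at chr11:70156197-70170834 (mm10), both on the forward strand, with 18646 bases between them and no table gene in that gap. Within 100 kb, the liver lectin genes Asgr1 and Asgr2, which encode the asialoglycoprotein receptor subunits and belong to the same lectin group, held 9 and 169 fragments in all kept cells. Mgl2 held 399321 and Clec10a 138690 fragments. The small gene Gm12311, just upstream of Mgl2 on the reverse strand, held 471. Of the 14 table genes other than the pair in that window, the highest counts were 6726 for Slc16a13, a monocarboxylate transporter gene, and 3497 for Dlg4, a synaptic scaffold gene, each found in 264 or fewer of the cells. The remaining genes, Slc16a11, Bcl6b, Alox12, Gm21988, 0610010K14Rik, Rnasek and the microRNA genes Mir497b, Mir497 and Mir195a, held between 0 and 1010 fragments. Nearly all fragments of the locus thus fell on the pair.

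The transcripts of the pair are close enough in sequence to bear on every count below. In the GENCODE annotation of the same build, the coding sequences of Clec10a-201 (918 bases) and Mgl2-201 (999 bases) matched at 840 of 918 aligned bases, or 91.5%. Their longest identical run is 183 bases. It runs over exons 7 to 9 in both transcripts, at chr11:70169822-70170189 in Clec10a and chr11:70136337-70136699 in Mgl2, with introns between the pieces. It is shown because a 50-base read from anywhere inside it carries nothing that tells the genes apart.
Clec10a and Mgl2: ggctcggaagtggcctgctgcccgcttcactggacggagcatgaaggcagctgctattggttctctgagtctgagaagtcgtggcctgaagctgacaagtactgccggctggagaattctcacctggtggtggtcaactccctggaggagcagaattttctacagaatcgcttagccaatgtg
The stretch of 90 aligned coding bases in which they differ most lies in exon 10 of each transcript, at chr11:70170449-70170538 in Clec10a and chr11:70136952-70137041 in Mgl2. It differs at 27 bases, which are in capitals, and is shown as the part by which a read can be placed.
Clec10a: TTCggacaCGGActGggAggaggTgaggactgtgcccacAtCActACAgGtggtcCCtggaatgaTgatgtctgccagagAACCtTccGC
Mgl2: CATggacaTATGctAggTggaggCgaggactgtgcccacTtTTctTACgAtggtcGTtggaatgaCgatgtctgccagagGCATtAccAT
Of the 50-base windows of the coding sequence, 27.8% of those of Clec10a-201 and 25.5% of those of Mgl2-201 stood letter for letter in a transcript of the other gene. Over all annotated transcripts of the genes the shares were 8.49% and 12.2%. By the study's methods only uniquely mapped fragments were counted, as read pairs and without strand.

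A trace of the other lectin was present in every cell rich in either lectin. None of the 394 cells with at least 100 Clec10a fragments was without Mgl2, and none of the 403 cells with at least 300 Mgl2 fragments was without Clec10a. The ratios of the Clec10a-rich cells had 2 heaps, since 86 of them held 128 to 256 Mgl2 fragments per 100 of Clec10a, 12 held 8 to 16 per 100, and 32 held 2 to 4 per 100. The Mgl2-rich cells were less clearly divided, since 88 held 8 to 16 Clec10a fragments per 100 of Mgl2, 46 held 4 to 8 and 54 held 2 to 4. In the 70 Clec10a-rich cells under 10 per 100 the median was 3.40 Mgl2 fragments per 100 (quartiles 2.49 and 4.94), and in the 164 such Mgl2-rich cells it was 3.29 Clec10a fragments per 100 (quartiles 2.06 and 6.11). The counts of the pair ran together inside these cells (Spearman rho 0.794 over 70 and 0.750 over 164 cells), although the limit of 10 per 100 itself ties them. How many of these low counts were fragments placed at the wrong gene was not tested. The main joint results below are therefore given as counted and again with a guard, under which a lectin counts as present only if it also reaches 10% of the other lectin's fragments in that cell, or with the above medians subtracted in proportion. Values with neither named are as counted. The guard and the subtraction were added after the counts had been seen, and each of them lowers the association of the pair partly by its own construction.

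With TNF, the summed level of both lectins was lower in both mice and on all 4 plates, and that of Clec10a by more. Clec10a stood at 266 and 349 CPM (fragments scaled to a common library total) in the IL4+IL13 sums of mouse 1 and mouse 2, and at 80.9 and 120 CPM in the IL4+IL13+TNF sums. Mgl2 stood at 814 and 646 CPM, and with TNF at 378 and 490 CPM. The sums of the treatments did not overlap for either gene, but the share of all genes so separated was not counted. Divided by exon length, Mgl2 was the more abundant lectin throughout, at 389 and 308 CPM per kb against 91.7 and 120 CPM per kb for Clec10a in IL4+IL13, and at 181 and 234 against 27.9 and 41.4 CPM per kb with TNF. The log2 change in CPM of Clec10a was −1.69, −1.73, −1.63 and −1.46 on plates 2, 3, 4 and 5. The change of Mgl2 was −1.09 and −1.14 on the plates of mouse 1 and −0.45 and −0.36 on those of mouse 2. So Clec10a differed between treatments by a like amount in both mice, whereas the change of Mgl2 differed between them.

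In edgeR's quasi-likelihood test over the 4 sums, with treatment as the only term, the log2 change was −1.52 ± 0.26 (SE, adjusted p = 0.232) for Clec10a and −0.66 ± 0.21 (adjusted p = 0.506) for Mgl2. Only 1 of 17034 genes, or 0.00587%, passed an adjusted p of 0.05 in that fit, while 1380 had an unadjusted p under 0.05, Clec10a (0.00199) and Mgl2 (0.0248) among them. Because mouse number, and with it the plates, is shared by the treatments, the fit was repeated with mouse as a replicate block. There 320 genes (1.88%) were lower with TNF and 331 (1.94%) higher at an adjusted p under 0.05. Clec10a passed, at −1.54 ± 0.11 and an adjusted p of 0.00771, and Mgl2 did not, at −0.66 ± 0.18 and 0.117. DESeq2 without the block called 293 genes (1.9%) lower, and gave an adjusted p of 6.02e-05 for Clec10a and 0.232 for Mgl2. Of all tested genes, 1.37% had a more negative log2 change than Clec10a and 8.99% a more negative one than Mgl2.

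Clec10a was the smaller part of the pair throughout, and smaller still with TNF. Clec10a made up 24.6% and 35.1% of the pair's fragments in the IL4+IL13 sums of mouse 1 and 2, and 17.6% and 19.6% in the TNF sums. The log2 ratio of Clec10a to Mgl2 was −1.61 and −0.89, and with TNF −2.22 and −2.03, so that the log2 change of Clec10a was 0.61 below that of Mgl2 in mouse 1 and 1.14 below it in mouse 2. The mean difference was −0.88 ± 0.38 (SD, n = 2 mice), with the same sign on 4 of 4 plates, from −0.60 to −1.18. An exact two-sided permutation test gave p = 0.33, the smallest value that 2 mice per treatment allow. None of the tests over mice below could therefore pass 0.05, and their differences are given as lower or higher values only. With proportional fragments subtracted the difference was −0.97 ± 0.40. Between the medians of single cells in place of the sums it was −0.33, with Clec10a at 140 and 183 CPM against 19.6 and 29.1 with TNF, and Mgl2 at 413 and 318 CPM against 56.4 and 81.7. The typical cell with TNF thus had much less of both lectins, and in mouse 1 by nearly the same factor, while the Mgl2 sums with TNF were held by fewer cells. The top 10% of cells carried 40.5% and 41.8% of the summed Mgl2 CPM in IL4+IL13 and 64.3% and 56.3% with TNF, against 41.9% and 42.2%, and 56.8% and 52.6%, for Clec10a.

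For the joint distribution, each cell was thinned to 339000 fragments, which left 332 and 309 IL4+IL13 cells and 303 and 306 IL4+IL13+TNF cells of mouse 1 and 2. The 136 shallower cells, 49 with IL4+IL13 and 87 with TNF, were left out. A lectin was called present from 5 fragments. The cells spread over both axes, with no gap along either between absent and high.

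**Figure D1:**
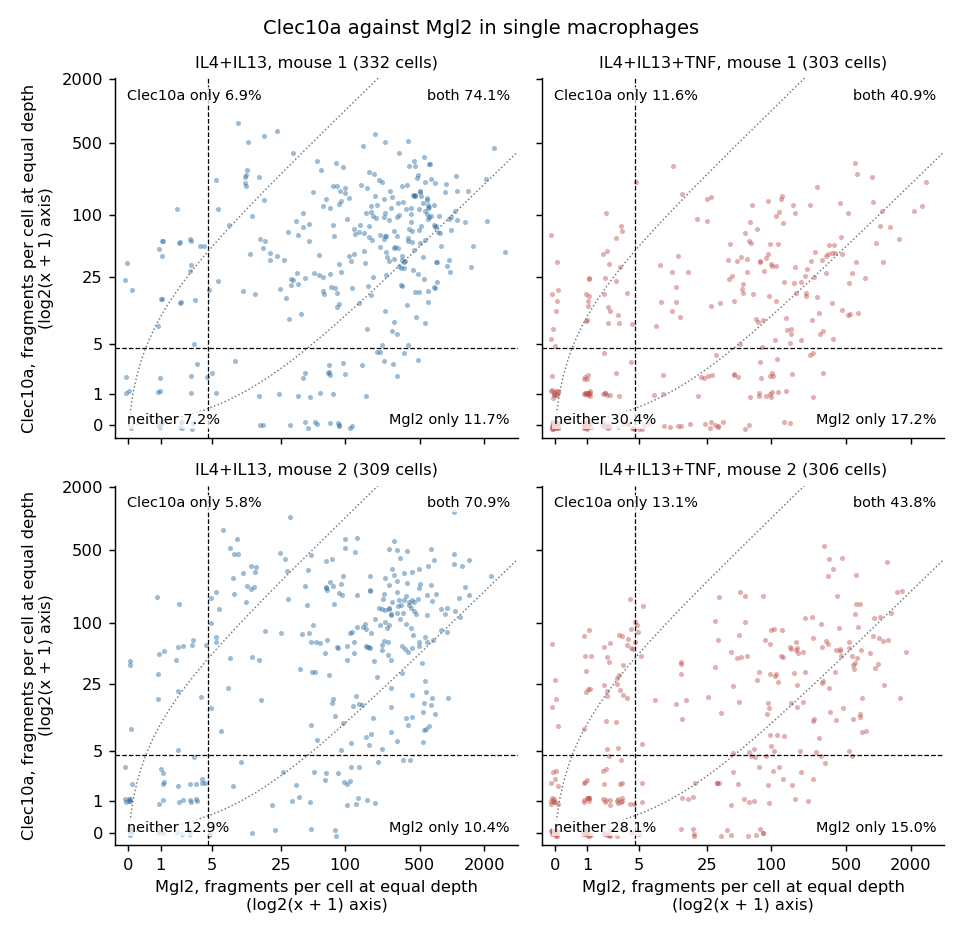
Clec10a fragments (vertical) against Mgl2 fragments (horizontal) in single cells thinned to 339000 fragments, on log2(x + 1) axes with slight jitter, for 1 treatment and mouse per panel. Dashed lines mark 5 fragments and dotted lines 10 fragments of 1 lectin per 100 of the other; cells with both lectins made up 74.1% and 70.9% with IL4+IL13 and 40.9% and 43.8% with TNF, and many of the remaining points follow the dotted lines on their outer side.

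The widest gap between treatments was in cells that held both lectins. Cells with both lectins made up 75.3%, 72.9%, 72.2% and 69.4% of the IL4+IL13 cells on plates 2, 3, 4 and 5, and 43.0%, 39.4%, 41.4% and 46.0% of the TNF cells, with no overlap. Cells with neither made up 7.23%, 7.23%, 12.96% and 12.93%, and with TNF 25%, 34.3%, 31.0% and 25.5%, again with no overlap. Over mice, the share with both was lower by 30.1 ± 4.31 percentage points (72.5% against 42.4%) and the share with neither was higher by 19.1 ± 5.64 points (10.1% against 29.2%; SD of the difference, n = 2 mice, exact permutation p = 0.33 each). Under the guard, cells with both made up 54.4% ± 2.76 and, with TNF, 27.6% ± 0.66, a difference of −26.8 ± 2.10 points. The share with neither is the same under the guard, since the guard removes only the smaller of 2 counts.

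The discordant cells were fewer and depended on how presence was set. Cells with Mgl2 only made up 9.04%, 14.5%, 8.02% and 12.9% of the IL4+IL13 cells by plate and 20.3%, 14.9%, 14.5% and 15.5% of the TNF cells, which was 5.05 ± 0.52 points more over mice. Cells with Clec10a only made up 8.43%, 5.42%, 6.79% and 4.76%, and with TNF 11.7%, 11.4%, 13.1% and 13.04%, which was 5.94 ± 1.85 points more. Under the guard, the difference for Mgl2-only cells was 6.55 ± 3.97 points (23.01% against 29.6%), but that for Clec10a-only cells was 1.09 ± 0.43 points (12.5% against 13.6%), and the mice of the treatments overlapped (exact permutation p = 0.67). With presence set from 25 fragments, the difference for Clec10a-only cells turned to −3.37 points. Of the cells with Mgl2, 13.2% ± 0.66 lacked Clec10a in IL4+IL13 and 27.6% ± 2.82 with TNF (29.7% ± 1.89 and 51.7% ± 1.21 under the guard). Of those with Clec10a, 8.07% ± 0.68 lacked Mgl2, and 22.5% ± 0.69 with TNF (18.7% ± 3.15 and 33.0% ± 3.01 under the guard). In either reading, the share of cells with 1 lectin that were without the other was higher in both mice when TNF was present. As counted, Clec10a was present in 78.9% of all cells and 54.7% with TNF, and Mgl2 in 83.5% and 58.5%. Higher shares would follow from this lower presence alone, so they do not show that the lectins were less tied.

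**Figure D2:**
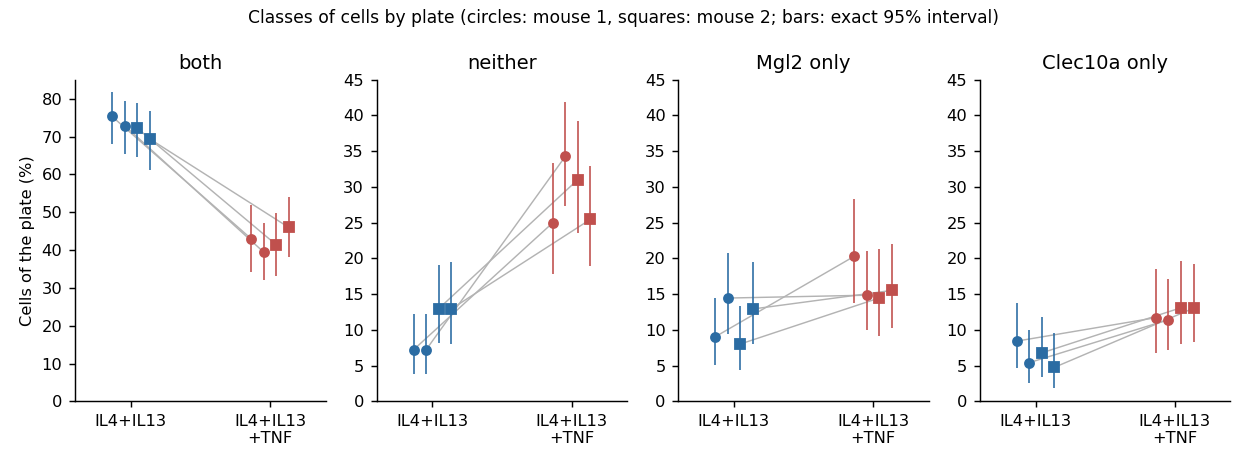
Share of cells (%) with both lectins, neither, Mgl2 only or Clec10a only, by plate and treatment, at 5 or more fragments of equal depth; bars are exact (Clopper-Pearson) 95% intervals for counting cells and grey lines join the treatments of a plate. The share with both was 69.4% to 75.3% with IL4+IL13 and 39.4% to 46.0% with TNF, and the share with neither was higher with TNF on each plate.

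Few of the discordant cells were extreme as counted. The Mgl2-only cells held a median of 74 and 77.5 Mgl2 fragments in the IL4+IL13 cells of mouse 1 and 2, and 46 and 65 with TNF, next to a median of 1 to 1.5 of Clec10a. The Clec10a-only cells held a median of 36 and 45 Clec10a fragments, and 17 and 31.5 with TNF, next to 2 of Mgl2. At equal depth, only 4 cells in all, 2 of each treatment and all of mouse 1, had at least 100 fragments of Mgl2 and 0 of Clec10a, and no cell had the opposite pattern. This count leaves out cells with a trace of the other lectin. Before thinning, 31.1% of the Mgl2-rich IL4+IL13 cells and 59.6% of those with TNF held under 10 Clec10a fragments per 100 of Mgl2. The like shares of the Clec10a-rich cells were 16.9% and 20.2%. Median totals per cell were 476198 to 497425 fragments over the 4 classes and 2 treatments, and mitochondrial shares 2.90% to 3.56%. Shallow cells and outliers had been removed before. Median genes found were fewer in cells with neither lectin than with both, at 7498 against 7780 in IL4+IL13. With TNF they were 7949.5 against 8225.5. The part of cell quality in the classes was not tested. By row of the plate, pooled over the plates, the share with both lectins was 62.0% to 79.3% over the 8 IL4+IL13 rows. Over the 8 TNF rows it was 31.6% to 52%. These rows are parts of the same cultures and not replicates. Each row held a single treatment, so the rows cannot tell position from treatment.

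The difference in the share of cells with a transcript was alike for the genes, while that in the mean level of cells with it was not. Clec10a was present in 81.0% and 76.7% of the IL4+IL13 cells of mouse 1 and 2 and in 52.5% and 56.9% with TNF. Mgl2 was present in 85.8% and 81.2%, and with TNF in 58.1% and 58.8%. These are log2 changes of −0.63 and −0.43 for Clec10a and −0.56 and −0.47 for Mgl2. Among the cells with Clec10a, the mean was 108 and 156 fragments, and with TNF 49.8 and 63.9. That is a log2 change of −1.12 and −1.29, alike in the mice. Among the cells with Mgl2, the mean was 320 and 271 fragments, and with TNF 229 and 287, a log2 change of −0.49 in mouse 1 and 0.08 in mouse 2. The median in those cells was lower with TNF for both genes, at 67 and 96 against 29 and 44.5 Clec10a fragments and at 198 and 171 against 99.5 and 124 Mgl2 fragments. The log2 changes of these medians were −1.21 and −1.11 for Clec10a and −0.99 and −0.46 for Mgl2, so the genes lay closer by median in mouse 1. With presence from 1 fragment, the medians changed by −1.82 ± 0.14 and −1.60 ± 0.46 (SD, n = 2 mice).

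**Figure D3:**
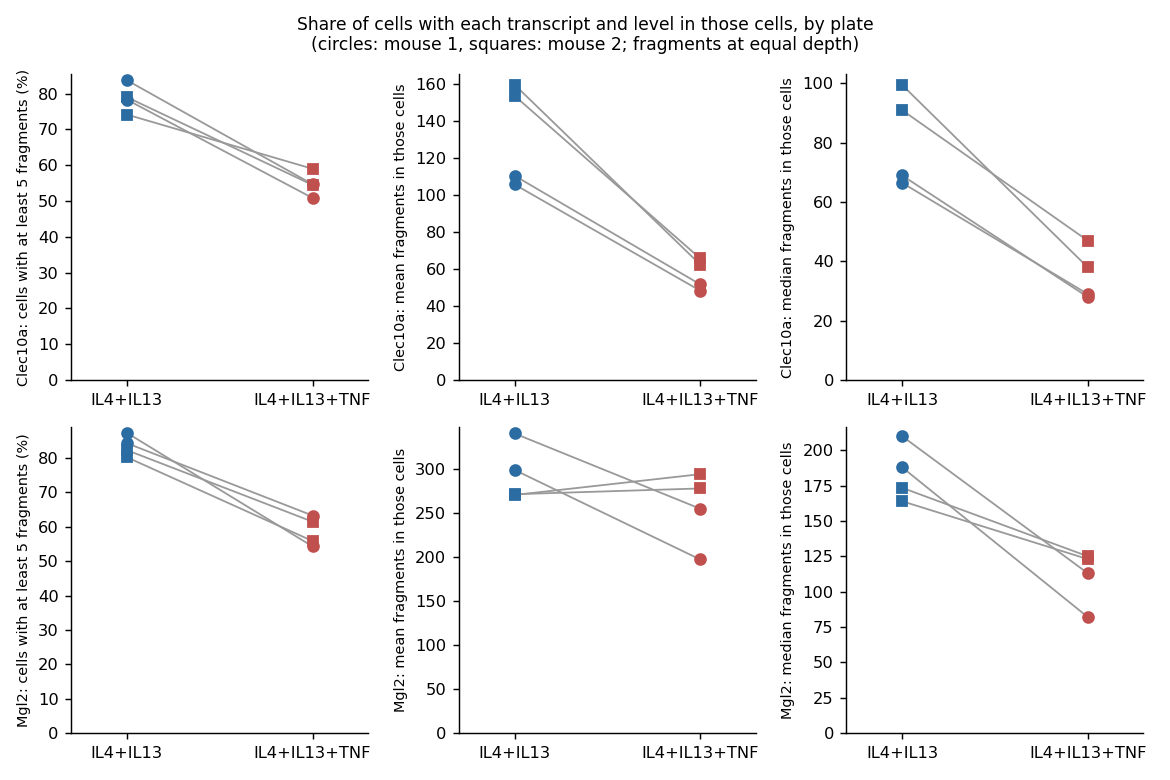
For Clec10a (top) and Mgl2 (bottom), by plate: the share of cells with at least 5 fragments at equal depth (%), and the mean and median number of fragments in those cells. Lines join the treatments of 1 plate; the shares were lower by like amounts with TNF, while the mean was lower on each plate for Clec10a but for Mgl2 only on the plates of mouse 1, with mouse 2 at 271 against 287.

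How the difference divides depends on the minimum. At 1 fragment the share of cells changed by −0.25 ± 0.07 (Clec10a) and −0.14 ± 0.07 (Mgl2) on the log2 scale, at 25 fragments by −0.94 ± 0.33 and −0.55 ± 0.14, and at 50 fragments by −1.37 ± 0.36 and −0.63 ± 0.16 (SD, n = 2 mice). Under the guard the shares changed by −0.70 ± 0.05 for Clec10a and −0.44 ± 0.11 for Mgl2, and the mean of the cells with the transcript by −1.18 ± 0.04 and −0.28 ± 0.36. At 5 fragments, the mean of Clec10a in cells that had it was thus lower by a like amount as counted and with the guard. It also moved with the minimum, changing by −1.47 ± 0.05 at 1 fragment, −0.91 ± 0.27 at 25 and −0.67 ± 0.28 at 50. The shares of the genes were alike as counted at 5 fragments and not at 25 or under the guard.

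Clec10a was also lower in cells of like Mgl2 level. In cells with 100 or more Mgl2 fragments, a median of 74 and 91 Clec10a fragments was found in the IL4+IL13 cells of mouse 1 and 2 (185 and 159 cells) and of 28 and 48 with TNF (88 and 103 cells). The median Mgl2 in that bin was 363 and 304, and with TNF 241.5 and 334 fragments, so in mouse 2 the TNF cells had the higher Mgl2 and the lower Clec10a. Clec10a was present in 93.0% and 91.8% of these cells, and with TNF in 85.2% and 89.3%. Under the guard the shares were 70.5% ± 2.60 and 47.1% ± 0.69, a difference of −23.4 ± 1.91 points. In cells with 25 to 99 Mgl2 fragments, Clec10a was present in 71.2% and 79.6%, and with TNF in 60.3% and 54.9% (51 to 66 cells each). In cells with 5 to 24, it was present in 79.4% and 78.9%, and with TNF in 46.7% and 53.8% (26 to 38 cells each). This difference of −28.9 points was −23.4 with another random thinning. By plate, the share in this bin was lower with TNF on plates 2, 3 and 4. On plate 5 it was higher, at 63.2% against 80% with TNF (19 and 15 cells), and at 30% against 72.7% under the guard. Under the guard these bins gave differences of −20.4 ± 9.27 points (73.4% against 52.96%) and −18.01 ± 11.2 points (59.8% against 41.8%), so the order of the bins by size of difference was turned round. In cells with fewer than 5 Mgl2 fragments the mice went apart, at 48.9% against 27.6% with TNF in mouse 1 and 31.0% against 31.7% in mouse 2.

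**Figure D4:**
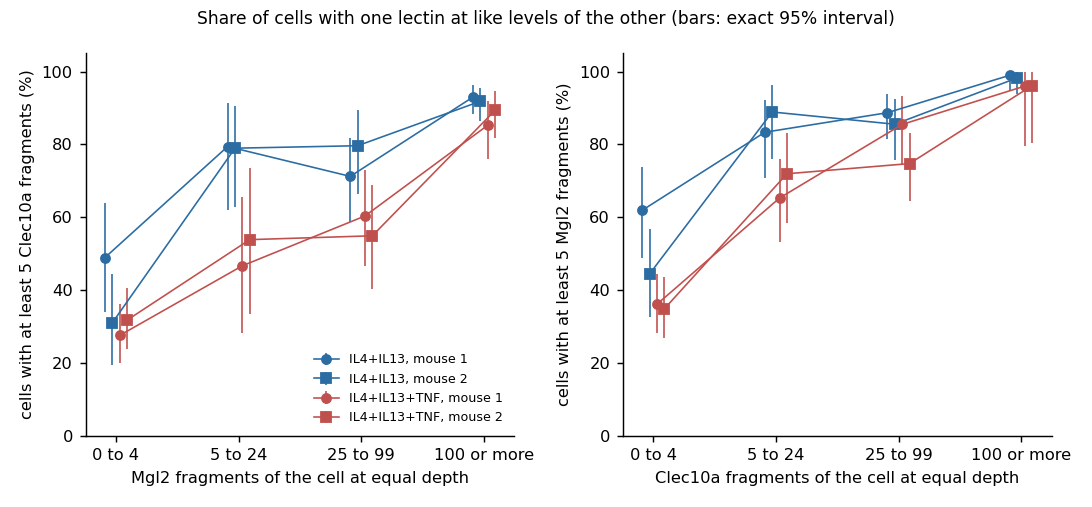
Left, share of cells (%) with at least 5 Clec10a fragments in bins of Mgl2 fragments of the same cell; right, share with at least 5 Mgl2 fragments in bins of Clec10a; by treatment and mouse, with exact 95% intervals for counting cells. At 5 to 24 Mgl2 fragments the IL4+IL13 cells sit at 79.4% and 78.9% and the TNF cells at 46.7% and 53.8%. Plate 5, not drawn on its own, went the other way in that bin, at 63.2% against 80% with TNF. As counted the treatments lie closer at 100 or more. Under the guard, which is not drawn, the difference was −18.01 ± 11.2 points at 5 to 24 and −23.4 ± 1.91 points at 100 or more.

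The share of cells with Mgl2 was also lower with TNF in each bin of Clec10a in both mice. In cells with 100 or more Clec10a fragments, Mgl2 was present in 99% and 98.3% with IL4+IL13 and in 96% and 96.2% with TNF, the latter from 25 and 26 cells. No values under the guard were made for the bins of Clec10a. Before thinning, 295 IL4+IL13 cells and 99 TNF cells had at least 100 Clec10a fragments. Of these, 50 and 20 held under 10 Mgl2 fragments per 100 of Clec10a, and 42 and 14 of those still reached 5 Mgl2 fragments. In cells with 5 to 24 Clec10a fragments, Mgl2 was present in 83.3% and 88.9%, and with TNF in 65.3% and 71.9%. In cells with fewer than 5, it was present in 61.9% and 44.4%, and with TNF in 36.1% and 34.8%, a wider gap in both mice than that of Clec10a in cells with fewer than 5 Mgl2 fragments. Inside the cells with both lectins, the median log2 ratio of Clec10a to Mgl2 was −1.64 and −1.01, and −2.08 and −2.28 with TNF. Clec10a was the larger count in 24.8% and 33.3% of them, and in 18.5% and 18.7% with TNF. Under the guard, which takes the most unequal cells out of this class, the mean of that median was −1.10 ± 0.26 and −1.24 ± 0.17, so within these cells the shift of the ratio was smaller than its spread over mice (−0.14 ± 0.42).

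The lectins varied together from cell to cell. Spearman's rho at equal depth was 0.442, 0.358, 0.390 and 0.420 in the IL4+IL13 cells of plates 2, 3, 4 and 5 (147 to 166 cells each) and 0.558, 0.592, 0.590 and 0.524 in the TNF cells (128 to 175 cells each). The values with TNF were higher on 4 of 4 plates, by 0.166 ± 0.02 over mice (0.401 against 0.567, exact permutation p = 0.33). Among cells with at least 1 fragment of each the values were 0.261 and 0.393. With proportional fragments subtracted, rho was 0.182 ± 0.002 with IL4+IL13 and 0.253 ± 0.033 with TNF, a difference of 0.071 ± 0.035. The size of the association thus changed by more than 2 times with the treatment of these fragments, and its mean was higher with TNF in both mice either way. By plate, the subtracted rho was higher with TNF on plates 2, 3 and 4 (0.254, 0.128 and 0.180 against 0.316, 0.256 and 0.305) and lower on plate 5 (0.184 against 0.154).

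The odds ratio gave no steady direction. At 5 fragments the log2 odds ratio between the presence of the lectins was 3.29 ± 0.84 with IL4+IL13 and 2.63 in each mouse with TNF, a difference of −0.67 ± 0.84. At 25 fragments the difference was 0.67, and under the guard it was 0.11 ± 0.80, with odds ratios of 1.90 ± 0.63 and 2.02 ± 0.43. As counted, cells with neither lectin were more frequent than the product of the single shares gives in each mouse and treatment. They were at 7.23% and 12.9% against 2.69% and 4.37% with IL4+IL13, and at 30.4% and 28.1% against 19.9% and 17.8% with TNF. Under the guard their share is the same but the single shares were lower, so the excess was smaller. Clec10a was then present in 66.9% and, with TNF, 41.2% of cells, and Mgl2 in 77.4% and 57.1%. The guarded odds ratios by mouse were 1.45 and 2.35 with IL4+IL13, and 2.32 and 1.72 with TNF.

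Among all genes, each lectin was the one whose level across cells was most like the other's as counted. Over the 8 groups of plate and treatment the mean rho of the pair on CPM of all kept cells was 0.483 (0.360 to 0.608), rank 1 of 10646 genes found in at least 25% of cells and varying in each group. The middle of these genes had a mean rho of 0.019 with either lectin, and 95% of them lay under 0.110 with Clec10a and 0.122 with Mgl2. Cells of a group share their plate and differ in depth. With proportional fragments subtracted the mean rho of the pair was 0.204 (0.096 to 0.292), and Mgl2 ranked 15 among genes by likeness to Clec10a and Clec10a 34 by likeness to Mgl2. The first rank of each for the other was thus not kept when these fragments were taken off. The subtraction was made only between the lectins and left the other genes as counted. Part of the drop in rank therefore follows from its own construction.

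The next genes by likeness to Clec10a were the membrane protein gene Serinc3 (0.358), Cfp, which encodes properdin of the alternative complement pathway (0.343), Ctsc, the lysosomal protease cathepsin C (0.335), and the surface protein gene Ly6e (0.303). With Mgl2 they were Cfp (0.331), Alox5ap, needed for leukotriene synthesis (0.312), the centrosome gene Cep85 (0.303) and Ctsc (0.287). Least like Clec10a were Gpnmb, a glycoprotein of lysosome-rich macrophages (−0.382), Anxa1, annexin A1 (−0.376), and the endosomal tetraspanin gene Cd63 (−0.338). Least like Mgl2 were Gpnmb (−0.385), the ferritin heavy chain gene Fth1 (−0.380) and its pseudogene Fth-ps3 (−0.366), whose fragments cannot be told surely from those of Fth1. After subtraction the same 3 genes remained lowest for each lectin, at −0.277 to −0.362. With TNF, the log2 changes of Serinc3 and Alox5ap were −0.98 and −0.75 (edgeR adjusted p with the block 0.0181 and 0.021), those of Cfp and Anxa1 0.51 and 0.63 (0.0454 and 0.0296) and that of Fth1 0.50 (0.00798), while Ctsc, Ly6e, Gpnmb, Cd63, Cep85 and Fth-ps3 had adjusted p values of 0.0599 to 0.748.

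The mean log2 level of 10 genes of Gpnmb-high, lipid-handling macrophages (Gpnmb, Spp1, Lpl, Lgals3 and others) ran against both lectins in 8 of 8 groups, with a mean rho of −0.329 for Clec10a (−0.451 to −0.200) and −0.296 for Mgl2 (−0.356 to −0.164). For Clec10a this was −0.411 with IL4+IL13 and −0.246 with TNF, and for Mgl2 −0.347 and −0.244. The plates of the treatments did not overlap for either lectin. With subtraction the list still ran against both lectins in 8 of 8 groups (mean −0.261 and −0.274). Cells with neither lectin were at a median list score of 9.37 and 8.84 with IL4+IL13 (mouse 1 and 2) and 9.6 and 8.73 with TNF, against 8.06 and 7.60, and 8.57 and 7.75, in cells with both. The 10 genes of C1q-high macrophages (C1qa, Maf, Selenop and others) ran with Clec10a in 8 of 8 groups, with a mean rho of 0.141 in IL4+IL13 and 0.286 with TNF, and with Mgl2 in 7 of 8 groups, at 0.074 and 0.213. The macrophage identity list, with Csf1r and Adgre1, had a mean rho of 0.023 and 0.047 with Clec10a and Mgl2 in IL4+IL13, and of 0.234 and 0.199 with TNF. With subtraction, the C1q-high list kept its sign in the same number of groups (mean 0.191 for Clec10a and 0.126 for Mgl2), and the identity list was at 0.003 and 0.037 with IL4+IL13 and at 0.201 and 0.184 with TNF.

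**Figure D5:**
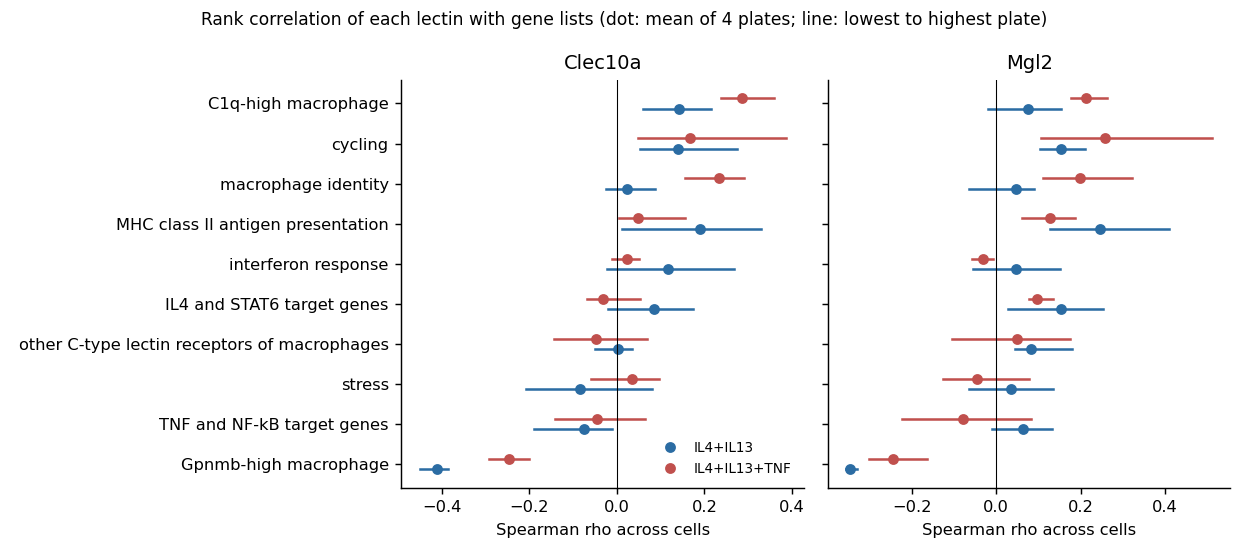
Spearman's rho across cells between each lectin and the mean log2 level of gene lists, by treatment; dots are means of 4 plates and lines run from the lowest to the highest plate. The Gpnmb-high list lies below 0 on each plate (means of −0.411 and −0.246 for Clec10a) and the C1q-high list above 0 on each plate for Clec10a.

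The 7 genes of MHC class II presentation, whose products show peptides to T cells, had a mean rho of 0.246 with Mgl2 and 0.190 with Clec10a in IL4+IL13 cells, and of 0.128 and 0.049 with TNF. With subtraction the values for Mgl2 were 0.234 and 0.135 and those for Clec10a 0.147 and −0.007, and Cd74, the invariant chain of these molecules, then ranked 4 among the genes most like Mgl2 (0.274). The mean level of 30 IL4 and STAT6 target genes ran with Mgl2 in 8 of 8 groups (mean 0.125, 0.028 to 0.253) and with Clec10a in 4 of 8 (mean 0.026, and −0.007 with subtraction). The 10 cycling genes ran with both lectins in 8 of 8 groups, at a mean of 0.152 for Clec10a and 0.205 for Mgl2 (0.106 and 0.200 with subtraction). Over the 8 groups, the ranges of the lectins overlapped for each of these lists. Within treatments, those of the IL4 and STAT6 list with TNF did not, at −0.069 to 0.053 for Clec10a and 0.078 to 0.134 for Mgl2. With subtraction they were −0.122 to 0.013 and 0.076 to 0.143. No test of a difference between the lectins was made.

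Of 24 other C-type lectin receptor genes of macrophages in the table, 17 passed the filter on low counts, and with mouse as a block 6 of them rose and 1 fell, where 1.94% of all tested genes rose and 1.88% fell. Clec4e (Mincle, a receptor for mycobacterial glycolipid), the gene that passed without the block too, rose from 19.6 and 22.6 to 636 and 705 CPM, a log2 change of 5.09 ± 0.19 (edgeR adjusted p = 0.0203). Ly75 (DEC-205, an endocytic receptor) and Clec4n (Dectin-2, a fungal mannan receptor) followed with 3.38 and 3.12, from low levels of 0.741 and 0.727 and of 1.92 and 2.45 CPM. The gene that fell was Mrc1, the mannose receptor, from 1233 and 1256 to 534 and 739 CPM (log2 change −0.88 ± 0.19, adjusted p with the block 0.0289). Cd209a, a mouse relative of DC-SIGN, and Colec12, a scavenger receptor gene, had log2 changes of −3.27 and −1.06 and did not pass (0.119 and 0.0852). The median log2 change of the 17 was 0.62, against −1.52 for Clec10a, −0.66 for Mgl2 and 0.0038 for all tested genes.

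Of 27 IL4 and STAT6 target genes tested, 8 rose and 2 fell with the block, against 1.94% and 1.88% of all tested genes, and the median log2 change was 0.79. The falls were Retnla, which encodes RELMα (85.8 and 510 to 10.7 and 11.8 CPM, log2 change −4.62, adjusted p 0.035), and Mrc1, while the transcription factor gene Klf4 was at −0.89 (0.0794). The rises were led by the chemokine genes Ccl22 (1.10 and 0.69 to 43.7 and 369 CPM, 7.93) and Ccl17 (0.118 and 0.29 to 2.90 and 70.7 CPM, 7.58), both far higher in mouse 2. Ch25h, the cholesterol 25-hydroxylase gene, was at 3.36 and did not pass (0.0726). Of 21 TNF and NF-kB targets, 15 rose with the block, against 1.94% of all tested genes, with a median of 2.22, and no member had a log2 change below 0. The lead was with Saa3, an acute-phase gene (6.84), Acod1, the itaconate enzyme gene (5.25), and Clec4e, while Il1b, the interleukin 1 beta gene, Nfkb1, an NF-kB subunit gene, and Tnip1, an inhibitor of the pathway, had the smallest values (0.14, 0.64 and 0.68) and did not pass.

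The marker genes matched the label of the cells. All 10 macrophage identity genes were above 1 CPM in at least 1 sum, at 15892 and 17890 CPM together with IL4+IL13 and 27599 and 26978 CPM with TNF. The higher sum was that of Lyz2, the lysozyme gene (11701 and 13210 against 23820 and 23008 CPM), while 7 of the 10 were lower in both mice and the median log2 change was −0.20. The 12 markers of lymphocytes and mast cells were all under 1 CPM, as were 8 of 10 neutrophil markers. All 10 neutrophil markers together came to 14.6 and 44.8 CPM, and to 41.0 and 86.3 with TNF. Most of this was Csf3r, at 13.2 and 42.1 CPM, and 39.0 and 79.8 with TNF. The 12 dendritic cell markers, of interest since Mgl2 also marks a dendritic cell subset, came to 20.9 and 20.1 CPM and, with TNF, to 33.8 and 218 CPM, of which Ccr7, the lymph node homing receptor gene, gave 20.5 and 190. Xcr1, Clec9a and Itgae were under 1 CPM in each sum. In the cells at equal depth with TNF, this list was at 87.0 and 575 CPM with neither lectin and 12.2 and 19.1 CPM with both. Mgl2-only cells were at 11.5 and 345 CPM and Clec10a-only cells at 15.4 and 15.7 CPM. The median list score with neither was 0.293 and 0.367, against 0.260 and 0.313 with both. With IL4+IL13 the classes lay between 8.05 and 25.3 CPM. The part of cells with dendritic markers in the results was not tested. The cycling list, which ran with both lectins, was itself lower with TNF in the sums (1195 and 702 against 642 and 393 CPM, 6 of 10 genes past the test with the block, against 1.88% of all tested genes), and its part in the loss of the lectins was not tested either.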

How the data were processed

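Single BMDMs were read by Smart-seq2 as 50-base paired ends. Per the labels and the methods of the study, the authors aligned them with gsnap to mm10 and deposited raw counts of fragments per Ensembl 98 gene, made with featureCounts 1.6.3 without strand. Wells were grouped by treatment and, as replicate, by mouse. Labels that name IL4+IL13 but no mouse left 4 samples out of every group. Of the other 1524 wells, 1386 were kept, as they were not more than 3 scaled median absolute deviations below the plate median in log fragments or log genes, or above it in mitochondrial or spike-in share. Another 8 columns matched no sample and were not used. No doublet caller was run on the sorted cells. Counts of the cells of each mouse under each treatment were added up, and the 4 sums were tested with edgeR 4.0.16 (TMM, quasi-likelihood, Benjamini-Hochberg over all 17034 genes found in at least 5% of cells of either treatment and passing filterByExpr). DESeq2 1.42.0 and limma 3.58.1 served as alternatives. Cells are not replicates. Without the block, the fits set the treatments against the spread between 2 mice. With the block, they set them against what is left once each mouse's own level is taken out. Both edgeR and DESeq2 also draw on the spread of the other genes. For joint shares each cell was thinned without replacement to 339000 fragments, the 10th percentile. Shares, odds ratios (0.5 added to each class) and rho were compared by exact two-sided permutation over mice. Intervals for counting cells are exact, at 95%, and cover counting error only. The mouse numbers pair the sums: the labels put both treatments of a mouse on the same plates, and the sums of 1 mouse deviated together from their treatment's mean (r = 0.581 over genes). Coding sequences were read from GENCODE M21 (mm10) and aligned with Biopython 1.88. Members, lists and tests were chosen with earlier results of these data known. Named genes are the pair, table genes within 100 kb, the 3 largest rises and falls of 3 lists, and the 5 most and 3 least alike genes per lectin. Alternatives changed the cell and gene filters, the scaling, the tool, the depth, the minimum for presence, and left out each sum or plate.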

Additional observations from a re-analysis of the deposited data

How the results depend on the processing

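With 2 mice, the tests over mice could not pass their threshold, and the calls rest on the model. The fall of Clec10a passed with mouse as a replicate block (−1.54, adjusted p = 0.00771) and with DESeq2 (−1.53) and in none of 13 other fits (−1.28 to −1.82). Mgl2 passed in none of 15 (−0.47 to −0.84). The count of genes called went from 1 to 651 with the replicate block, 598 with DESeq2, 5 without plate 2, 2 without plate 5 and 4 to 30 with a sum left out (30 without the TNF sum of mouse 1). The cause was not tested. Presence from 25 fragments turned the change of Clec10a-only cells to −3.37 points and that of the log2 odds ratio to 0.67, and the guard of 10% brought them to 1.09 points and 0.11. The guard, the subtraction, the other minimums for the split and the other thinning for the split and the matched share were chosen after seeing the data. For the split of the change, a minimum of 1 fragment moved the share of Clec10a to −0.25, its level to −1.47 and the share of Mgl2 to −0.14. A minimum of 25 moved the share and the level of Clec10a to −0.94 and −0.91, and the guard moved the shares to −0.70 and −0.44. Another thinning moved the matched share to −23.4 points. With a sum left out, the differences ranged from −28.5 to −31.7 points (both lectins), 16.3 to 22 (neither), 3.98 to 6.11 (Mgl2 only), 5.17 to 6.70 (Clec10a only), −1.26 to −0.07 (log2 odds ratio), 0.158 to 0.174 (rho) and −1.24 to −0.51 (Clec10a against Mgl2). Over 17 alternatives the difference stayed between −32.0 and −18.3 points for both lectins and between 5.12 and 26.4 for neither. The replicate block changed no other call of the pair.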

Other observations

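The labels of 4 wells name IL4+IL13 but no mouse, and place the wells in the bottom row of each plate, among the TNF cells, so they entered no comparison. The 3 with a column, on plates 3, 4 and 5, held 20, 26 and 5 Clec10a fragments (71.6, 73.3 and 57.3 CPM) and 11, 48 and 4 Mgl2 fragments (39.4, 135 and 45.9 CPM) in totals of 279461, 354874 and 87198 fragments.

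The plates agreed more within a mouse than between mice for Mgl2. Its log2 change with TNF was −1.09 and −1.14 on the plates of mouse 1 and −0.45 and −0.36 on those of mouse 2, and the mean of the cells with Mgl2 changed by −0.60 and −0.42 and by 0.03 and 0.12. For Clec10a the corresponding means changed by −1.09 and −1.13 and by −1.22 and −1.35. Mouse 1 started higher in Mgl2 (814 against 646 CPM) and lower in Clec10a (266 against 349 CPM) than mouse 2. With 2 mice, a difference between mice and one between their cultures or sorts cannot be told apart.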
